A study of Homo sapiens with 6 samples.

Results

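The genes of the desmosome were followed through sorted subpopulations of 2 human breast cancer cell lines. They are the 10 listed genes DSG2, DSG3, DSC2, DSC3, JUP, PKP1, PKP2, PKP3, DSP and PERP, found in the deposited table by their Entrez Gene IDs (1829, 1830, 1824, 1825, 3728, 5317, 5318, 11187, 1832 and 64065 in that order). The desmogleins and desmocollins lie on chromosome 18, DSP and PERP on 6, JUP on 17, PKP1 on 1, PKP2 on 12 and PKP3 on 11. All 10 had a row among 18795 genes, and all 10 passed the filter of a mean of at least 1 FPKM, as did 12454 genes in all. FPKM relates fragments to the length of the transcript and to the size of the library. The lines were MDA-MB-468 and HCC70, both from basal-like tumours without hormone receptors. Cells of each line were fixed in methanol, stained and sorted by flow cytometry into K18+Vim+ (keratin 18 and vimentin), K18+K14+ (keratin 18 and keratin 14) and K18+ (keratin 18 alone). There was 1 library per population and line, which gave 6 libraries, n = 2 per population and n = 3 per line. The labels name no treatment, and all groups were selected for keratin 18.

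Desmosomes are spot junctions that tie the keratin filaments of neighbouring epithelial cells together. Desmogleins (DSG) and desmocollins (DSC) are cadherins that bridge the gap between cells. Their tails bind the armadillo proteins plakoglobin (JUP) and the plakophilins (PKP), which bind desmoplakin (DSP), the plakin that holds keratin. PERP is a small membrane protein that supports desmosome assembly in stratified epithelia and is a target gene of the p53 family. DSG2, DSC2 and PKP2 are found in simple epithelia and heart as well, while DSG3, DSC3 and PKP1 are typical of stratified epithelia.

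Of the 3 libraries of MDA-MB-468, the one labelled K18+Vim+ stood apart, and every value drawn from it is that of the library so labelled. Its log2 values had a Pearson correlation across genes of 0.828 with MDA-MB-468 K18+, against 0.919 between MDA-MB-468 K18+K14+ and K18+ and 0.967 or more within HCC70. It listed SMAD4 and RB1, both deleted in this line, at 5.19 and 6.68 FPKM, while the other MDA-MB-468 libraries listed them at 0.566 FPKM or less. EGFR, which is amplified in this line, had 10.4 FPKM in it, against 70.7 and 153 FPKM in MDA-MB-468 K18+K14+ and K18+. Of the sort genes, VIM stood at 259 FPKM in that library and 54.8 FPKM in HCC70 K18+Vim+, against 13.4 FPKM or less elsewhere, and KRT14 was highest in K18+K14+ of each line, at 279 and 48.6 FPKM. KRT18, on which all groups were sorted, had 67.7, 569 and 464 FPKM in the MDA-MB-468 libraries labelled K18+Vim+, K18+K14+ and K18+, and 216, 174 and 158 FPKM in the same order in HCC70, so it was lowest in the library that stood apart. The 12 epithelial marker genes summed to 263 FPKM in the MDA-MB-468 library labelled K18+Vim+ and to between 2991 and 3817 FPKM in the other 5. Sums of 12 mesenchymal markers, VIM included, were 337 FPKM there, 172 FPKM in HCC70 K18+Vim+ and 26.9 to 80.8 FPKM elsewhere. VIM made up 259 of the 337 FPKM and 54.8 of the 172 FPKM, so these sums in part restate the sort. Against MDA-MB-468 K18+, 6 of 8 tested mesenchymal markers had a log2 ratio of 1 or more in that library. FN1 and COL1A1 were lower in it, at 16.9 against 25.2 FPKM and 2.78 against 3.55 FPKM. Genes of 5 endothelial markers were at or near the floor in all 6 libraries, with sums of 0.500 to 1.57 FPKM. The 8 immune and blood markers summed to between 4.89 FPKM in the MDA-MB-468 library labelled K18+Vim+ and 145 FPKM in HCC70 K18+K14+, where CD14 held 138 FPKM. In bulk libraries, fewer cells of a type and less RNA per cell cannot be told apart. Read counts are not given, so the depth behind each value is unknown.

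In HCC70 the desmosome genes were led by plakoglobin, PERP and plakophilin 3. JUP stood at 61.7, 71.2 and 67.7 FPKM in HCC70 K18+Vim+, K18+K14+ and K18+. PERP stood at 40.0, 47.1 and 63.8 FPKM in the same libraries, and PKP3 at 34.2, 44.2 and 30.5 FPKM. The ranges of these neighbours in the order of levels overlap, so JUP and PERP, and PERP and PKP3, are not separated by their spread over the libraries. Within each HCC70 library the order was JUP, PERP and PKP3. DSP followed at 13.998, 27.4 and 28.4 FPKM, below every PKP3 value. DSG2 (12.5 to 22.6 FPKM), DSC3 (8.82 to 15.8 FPKM), PKP1 (11.7 to 13.5 FPKM) and DSC2 (5.18 to 10.6 FPKM) came next. The ranges of DSG2 and DSP, DSC3 and PKP1, and DSC3 and DSC2 overlap, and all DSC2 values lie below those of PKP1. DSG3 and PKP2 were lowest. PKP2 varied least of all, at 3.72, 3.71 and 3.67 FPKM, and DSG3 stood at 1.53, 4.65 and 4.98 FPKM.

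In MDA-MB-468 K18+K14+ and K18+ the same 3 genes led, with JUP at 69.4 and 36.6 FPKM, PERP at 49.3 and 76.3 FPKM and PKP3 at 63.5 and 55.0 FPKM. The lower end differed. PKP1 had the floor value, 0.1 FPKM, in all 3 MDA-MB-468 libraries, and DSG3 had 0.109, 0.1 and 0.1 FPKM in the MDA-MB-468 libraries labelled K18+Vim+, K18+K14+ and K18+. In the MDA-MB-468 library labelled K18+Vim+ the order was another one, with PERP at 27.1 FPKM, JUP at 9.91 FPKM, DSG2 at 9.66 FPKM and PKP3 at 3.28 FPKM.

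**Figure D1:**
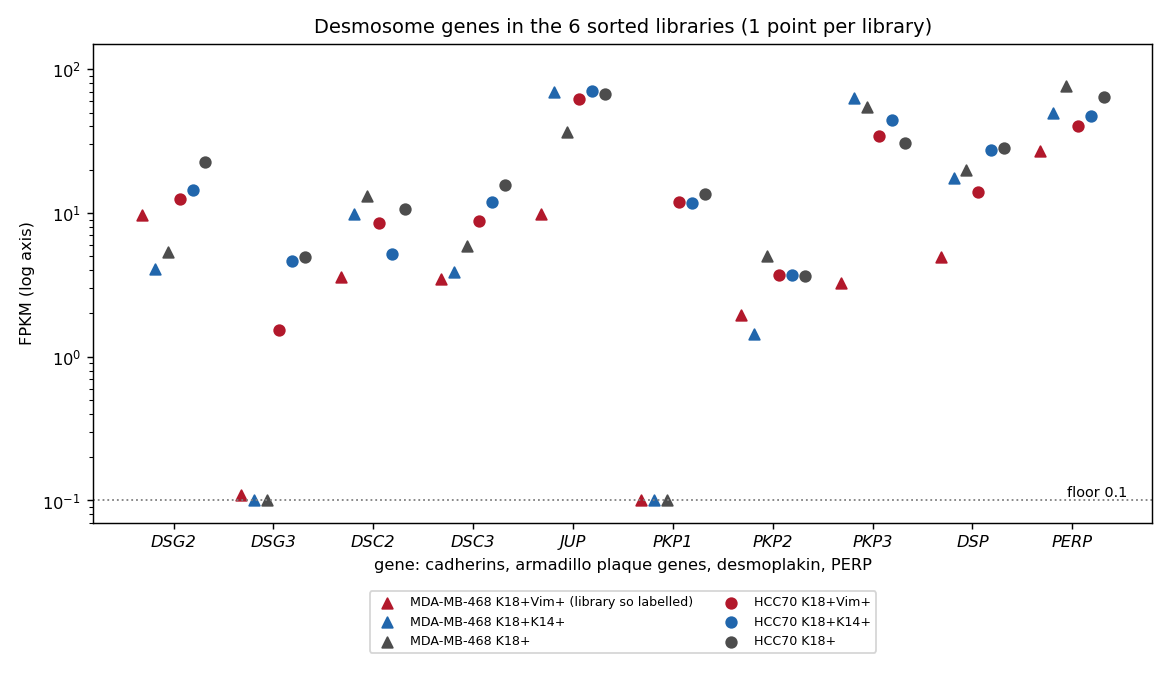
FPKM of the 10 desmosome genes on a log axis, 1 point per library, with MDA-MB-468 as triangles and HCC70 as circles and the populations by colour. PKP1 lies at the floor of 0.1 FPKM in the 3 MDA-MB-468 libraries and between 11.7 and 13.5 FPKM in HCC70; JUP and PKP3 are lowest in the MDA-MB-468 library labelled K18+Vim+.

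The comparison of the lines asks how desmosome genes differ between these 2 basal-like lines, with the 3 sorted populations of each as n = 3. PKP1, DSG3 and DSC3 were lower in MDA-MB-468 than in HCC70, and 7 members did not pass the test. PKP1, a plaque protein of stratified epithelium, was listed at 0.1 FPKM in the 3 MDA-MB-468 libraries and averaged 12.4 ± 0.99 FPKM in HCC70 (SD, n = 3). No fold is given against a value at the floor. Its fitted difference was -3.61 ± 0.32 on the log2(FPKM + 1) scale (SE, limma adjusted p = 0.00456), and this size depends on the pseudocount, being -5.96 at a pseudocount of 0.1 and -1.77 at a pseudocount of 5. DSG3, the desmoglein of basal keratinocytes, was listed at 0.1 to 0.109 FPKM in MDA-MB-468 and averaged 3.72 ± 1.9 FPKM in HCC70 (SD, n = 3), a fitted difference of -2.00 ± 0.41 (limma adjusted p = 0.0325). DSC3, a desmocollin of basal layers, stood at 3.47, 3.89 and 5.85 FPKM in the MDA-MB-468 libraries labelled K18+Vim+, K18+K14+ and K18+, against 8.82, 11.9 and 15.8 FPKM in HCC70 K18+Vim+, K18+K14+ and K18+. Its log2 difference was -1.27 ± 0.30 (limma adjusted p = 0.043). For each of these genes the libraries of the 2 lines do not overlap. The test called 12.2% of all genes, 7.68% as lower and 4.54% as higher, beside 3 of 10 members lower. PKP1 and DSG3 passed the filter on low values only through HCC70, where they are high, so they had to differ between the lines. Nothing is read from their calls in this or any other fit, from this count or from the counts of members lower that follow. DSC3 averaged over 1 FPKM in both lines.

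DSG2, the desmoglein found in all epithelia, had its lower values in MDA-MB-468 as well, with 9.66, 4.09 and 5.33 FPKM in the MDA-MB-468 libraries labelled K18+Vim+, K18+K14+ and K18+, against 12.5, 14.5 and 22.6 FPKM in HCC70 K18+Vim+, K18+K14+ and K18+. Its difference of -1.28 ± 0.40 did not pass over all 6 libraries (limma adjusted p = 0.0797). Without the MDA-MB-468 library labelled K18+Vim+ it was -1.75 ± 0.33 (limma adjusted p = 0.00673, with 0.00658 to 0.403 over the 14 alternatives). In that fit 4 of 10 members were lower and 0 higher, beside 15.4% and 11.5% of all genes (26.9% in all). They were PKP1 (adjusted p = 0.000195), DSG3 (0.00125), DSC3 (0.0189) and DSG2. Groups without overlap and lower in MDA-MB-468 were found for 4 of 10 members over all 6 libraries, beside 21.0% of all genes, and higher for 0, beside 20.1%. Without the library that stood apart 4 were lower and 1, PKP3, higher, beside 28.0% each way.

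DSP, JUP, PKP2, PKP3, DSC2 and PERP did not pass in either fit. PERP averaged 50.9 ± 24.6 FPKM in MDA-MB-468 and 50.3 ± 12.2 FPKM in HCC70 (SD, n = 3 each), with a fitted difference of -0.08 ± 0.34. DSC2 averaged 8.83 ± 4.83 FPKM in MDA-MB-468 and 8.11 ± 2.74 FPKM in HCC70, with a fitted difference of 0.01 ± 0.43. PKP3 stood above all HCC70 values in MDA-MB-468 K18+K14+ and K18+ but at 3.28 FPKM in the MDA-MB-468 library labelled K18+Vim+, and its difference was -0.57 ± 0.75 with that library and 0.67 ± 0.35 without it (limma adjusted p = 0.626 and 0.183, with 0.17 to 0.815 over the alternatives).

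The calls depend on the filter. With no filter on low values 0 of 18795 genes passed in limma, and PKP1, DSG3 and DSC3 had adjusted p of 0.122, 0.15 and 0.131. PKP1 passed in the other 13 alternatives, and its adjusted p ran from 0.000159 to 0.122 over all 14. Since PKP1 and DSG3 entered the test only through HCC70, their passing under an alternative is no support for the difference. DSG3 did not pass when a K18+ or K18+K14+ library of either line was left out (adjusted p 0.131 to 0.195). DSC3 did not pass in those fits (0.162 to 0.261), after quantile normalization (0.0513) or after the trend with transcript length was removed (0.0545).

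**Figure D2:**
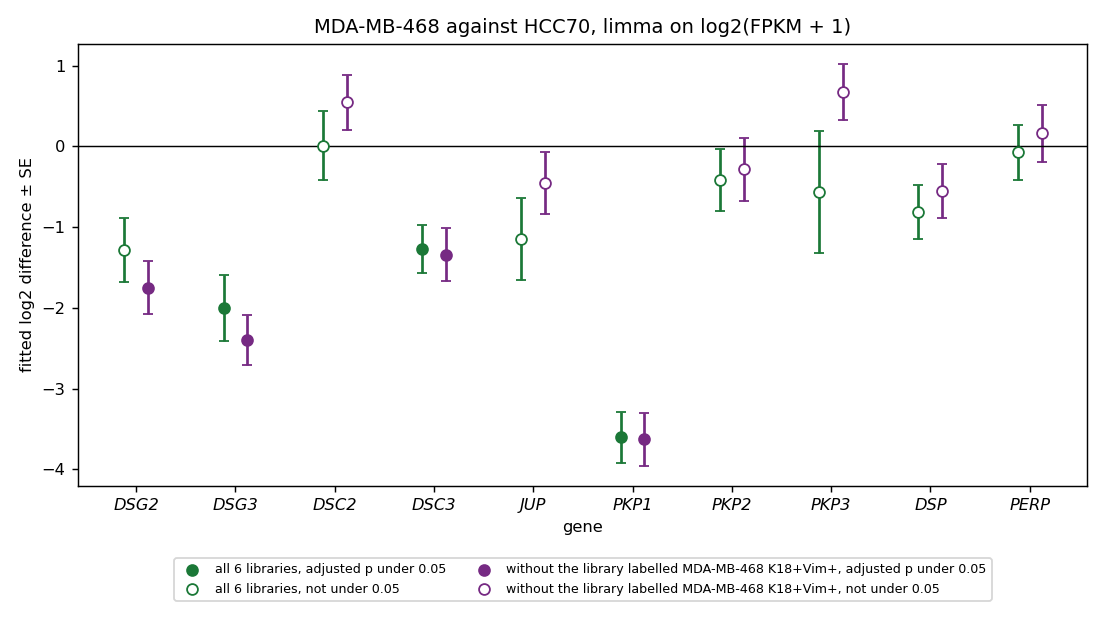
Fitted log2 difference of MDA-MB-468 against HCC70 for each desmosome gene, with SE bars, over all 6 libraries (green) and without the MDA-MB-468 library labelled K18+Vim+ (purple); filled points have an adjusted p under 0.05. PKP1, DSG3 and DSC3 are filled in both fits and DSG2 without that library, and PKP3 lies at -0.57 with and 0.67 without it. PKP1 and DSG3 passed the filter on low values only through HCC70.

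The promoter sequences of 4 members are shown to set 2 genes that are at or near the floor in MDA-MB-468, PKP1 and DSG3, beside 2 that had at least 4.09 FPKM in every library, DSG2 and DSP. Each is the 250 bases before the gene start from RefSeq (GRCh38.p14), on the plus strand, with matches to CAGGTG or its reverse complement in capitals. This is an E-box letter string bound by the SNAI and ZEB repressors. The regions are chr1:201283256-201283505 for PKP1, chr18:31447491-31447740 for DSG3, chr18:31497927-31498176 for DSG2 and chr6:7541421-7541670 for DSP.
PKP1: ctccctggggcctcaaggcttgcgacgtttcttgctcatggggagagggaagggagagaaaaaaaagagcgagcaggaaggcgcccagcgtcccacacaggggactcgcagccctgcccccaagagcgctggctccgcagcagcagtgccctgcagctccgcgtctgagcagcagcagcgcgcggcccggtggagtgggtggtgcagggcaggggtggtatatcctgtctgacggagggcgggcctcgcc
DSG3: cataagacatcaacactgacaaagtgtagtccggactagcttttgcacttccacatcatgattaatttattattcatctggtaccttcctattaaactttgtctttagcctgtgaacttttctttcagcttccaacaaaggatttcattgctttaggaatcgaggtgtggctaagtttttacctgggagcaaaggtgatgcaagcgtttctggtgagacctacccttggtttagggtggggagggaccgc
DSG2: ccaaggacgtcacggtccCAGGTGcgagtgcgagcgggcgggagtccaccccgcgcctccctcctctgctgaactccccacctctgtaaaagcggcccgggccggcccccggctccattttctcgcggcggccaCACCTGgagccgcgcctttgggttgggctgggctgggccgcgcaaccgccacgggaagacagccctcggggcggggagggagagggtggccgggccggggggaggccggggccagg
DSP: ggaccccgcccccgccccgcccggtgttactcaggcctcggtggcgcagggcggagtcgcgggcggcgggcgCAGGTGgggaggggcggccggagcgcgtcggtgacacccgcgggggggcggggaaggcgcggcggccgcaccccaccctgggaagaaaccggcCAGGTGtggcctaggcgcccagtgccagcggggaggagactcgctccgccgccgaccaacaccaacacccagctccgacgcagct
DSG2 holds 2 matches, which begin 232 and 116 bases before the gene start, and DSP holds 2, at 178 and 85 bases. PKP1 and DSG3 hold 0. Over 35116 promoter windows of this length 17.5% hold a match on either strand. Among the members 10 windows were found, for 8 genes, since DSC2 and JUP have 2 each, and 4 of the 10 windows (1 each of DSC2, DSG2, DSP and JUP) hold one. The base composition also differs, with 78.0% G and C in DSP, 75.2% in DSG2, 67.6% in PKP1 and 42.8% in DSG3, around a median of 58.0% over all windows. The GC box GGGCGG was found in 7 of the 10 windows and in 42.6% of all windows, the AP-1 string TGANTCA in 1 (PERP) and in 6.57%, the AP-2 string GCCNNNGGC in 4 and in 19.8%, and the GRHL string AACCGGTT in 0 and in 0.117%. These matches describe letters and say nothing of binding.

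The desmosomal cadherin genes lie side by side on chromosome 18, in the order DSC3, DSC2, DSC1, DSG1, DSG4, DSG3, DSG2, with CDH2 (N-cadherin) before and TTR after them among protein-coding genes. Levels did not follow this order. DSC3, DSC2 and DSG2, at both ends, were read in all 6 libraries, while DSG1 and DSG4, cadherins of the upper epidermis and hair, had 0.1 FPKM, the floor value, in all 6, and DSC1 had 0.294 FPKM or less. DSG3, next to DSG2, stood at 0.109 FPKM or less in MDA-MB-468 and at 1.53 to 4.98 FPKM in HCC70. CDH2 was listed at 6.43 FPKM in the MDA-MB-468 library labelled K18+Vim+ and at 0.112 FPKM or less in the other 5. RefSeq places a long noncoding RNA over part of 4 members (DSP, DSG2, DSC2 and DSC3), and strand is not given in the sources used here, so reads of these pairs cannot be told apart.

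Within each family the balance of paralogs differed between the libraries. Shares are of the summed FPKM of the members in each family, which is per length, and carry no test. DSG2 made up 98.9%, 97.6% and 98.2% of desmoglein FPKM in the MDA-MB-468 libraries labelled K18+Vim+, K18+K14+ and K18+, against 89.1%, 75.6% and 81.9% in HCC70 K18+Vim+, K18+K14+ and K18+. DSC2 made up 50.7%, 71.8% and 69.1% of desmocollin FPKM in the same MDA-MB-468 libraries, against 49.1%, 30.4% and 40.2% in HCC70. DSC2 therefore exceeded DSC3 in MDA-MB-468 K18+K14+ and K18+, and DSC3 exceeded DSC2 in HCC70 K18+K14+ and K18+, while both K18+Vim+ libraries had them near parity. Of the summed FPKM of PKP1, PKP2 and PKP3, PKP3 took 61.5%, 97.6% and 91.4% in MDA-MB-468 and 68.6%, 74.1% and 64.0% in HCC70. PKP2, the plakophilin of simple epithelia and heart, took 36.6% of this sum in the MDA-MB-468 library labelled K18+Vim+ and 8.40% or less elsewhere. Its level in that library was only 1.95 FPKM. PKP4, a plakophilin outside the listed members, was left out of these shares. It stood at 21.2, 26.9 and 39.2 FPKM in the MDA-MB-468 libraries labelled K18+Vim+, K18+K14+ and K18+. In HCC70 it stood at 31.2, 21.7 and 37.1 FPKM in the same order. With PKP4 in the sum the plakophilin shares given here would be lower. The ratio of desmogleins to desmocollins was 1.39, 0.305 and 0.287 in MDA-MB-468 and 0.811, 1.12 and 1.05 in HCC70.

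**Figure D3:**
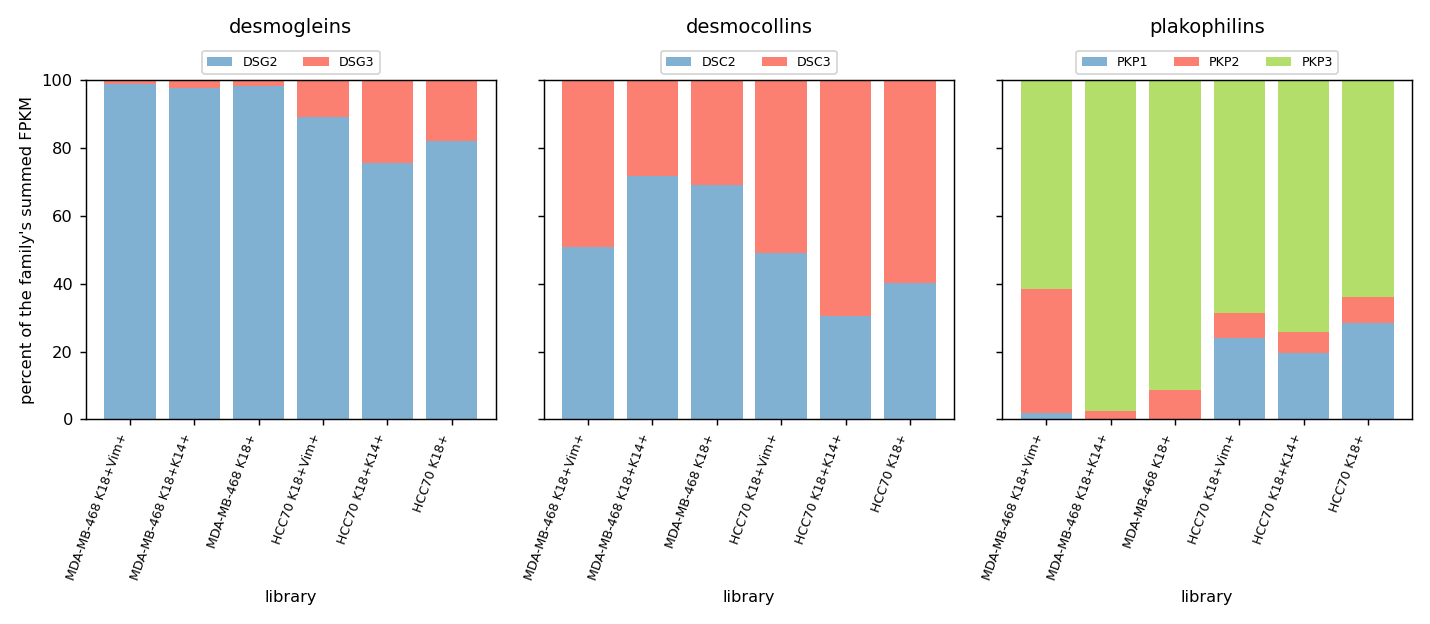
Share of each member in the summed FPKM of the members of its family, 1 bar per library, with PKP4 left out. DSC2 takes 71.8% and 69.1% of desmocollin FPKM in MDA-MB-468 K18+K14+ and K18+ against 30.4% and 40.2% in HCC70 K18+K14+ and K18+. PKP1 takes 1.88% or less of the summed PKP1, PKP2 and PKP3 FPKM in MDA-MB-468, where it is at the floor, and at least 19.6% in HCC70.

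K18+Vim+ cells were set against K18+ cells to see which desmosome transcripts differ beside vimentin. In HCC70 DSP, DSG3, DSG2, DSC3 and PERP had lower values in K18+Vim+, while the cadherin DSC2 and the armadillo genes lay nearer to K18+. DSP stood at 13.998 FPKM in HCC70 K18+Vim+, against 28.4 FPKM in HCC70 K18+. DSG3 stood at 1.53 against 4.98 FPKM and DSG2 at 12.5 against 22.6 FPKM. DSC3 stood at 8.82 against 15.8 FPKM and PERP at 40.0 against 63.8 FPKM. The log2 ratios of these 5 genes lay between -1.24 and -0.66. JUP, PKP1, PKP2 and PKP3 had log2 ratios of -0.13, -0.16, 0.02 and 0.16, and DSC2 of -0.29. The median of all genes was -0.16 and that of the members -0.47. The summed FPKM of the 4 cadherins was 31.4 in HCC70 K18+Vim+ against 54.0 in HCC70 K18+, and that of the 4 armadillo genes 112 against 115. A log2 ratio of -1 or less was reached by 1 of 10 members (DSG3), beside 3.42% of all genes, and of 1 or more by 0, beside 1.65%. These are single libraries of 1 line and carry no test.

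In the MDA-MB-468 library labelled K18+Vim+ PKP3, DSP and JUP had the lowest log2 ratios to MDA-MB-468 K18+, at -3.71, -1.81 and -1.79. The cadherin DSC2 was close to them at -1.62, and PERP and the plaque gene PKP2 had -1.46 and -1.04. PKP3 stood at 3.28 against 55.0 FPKM and JUP at 9.91 against 36.6 FPKM. DSP stood at 4.95 against 19.8 FPKM and DSC2 at 3.57 against 13.1 FPKM. PERP and PKP2 stood at 27.1 and 1.95 FPKM against 76.3 and 5.06 FPKM. DSG2 was higher, at 9.66 against 5.33 FPKM. PKP1 was at the floor in both libraries. A log2 ratio of -1 or less was found for 6 of 10 members, and one of 1 or more for 0, beside 16.9% and 11.6% of all genes, and the median was -1.25 for the members and -0.04 for all genes. The 4 armadillo genes summed to 15.2 FPKM against 96.8 FPKM, and the 4 cadherins to 16.8 against 24.4 FPKM. Beside these values, all 12 epithelial markers were lower by a log2 ratio of -2.15 or less, with a median of -3.53, and SMAD4, RB1 and EGFR went against the label as given above; their part in the result was not tested.

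**Figure D4:**
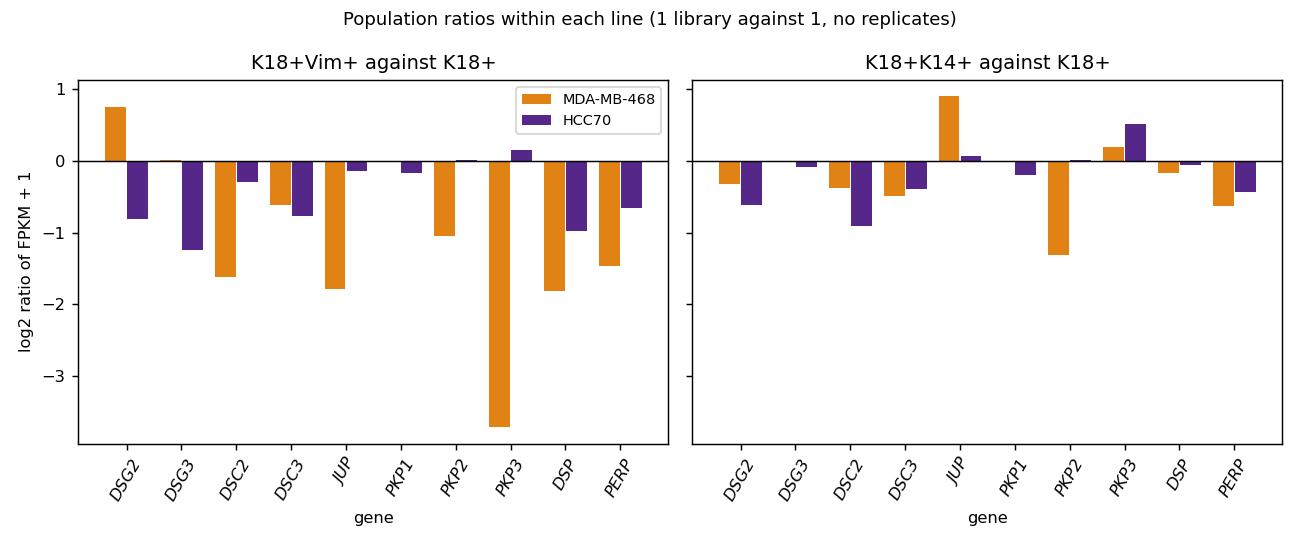
Log2 ratio of FPKM + 1 within each line for K18+Vim+ against K18+ (left) and K18+K14+ against K18+ (right), 1 library against 1, with MDA-MB-468 in orange and HCC70 in purple; PKP1 and DSG3 are at or near the floor in MDA-MB-468. For K18+Vim+, DSG2 is 0.75 in MDA-MB-468 and -0.80 in HCC70, and PKP3 -3.71 and 0.16.

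With limma over all 6 libraries 0 of 12454 genes passed in this comparison, and 532 genes (4.27%) had an unadjusted p under 0.05. Among these were DSP, with a fitted log2 difference of -1.39 ± 0.40 (unadjusted p = 0.0123, limma adjusted p = 0.863), and PERP with -1.06 ± 0.41 (unadjusted p = 0.0399, limma adjusted p = 0.863). DSP, DSC3, PERP, DSC2 and JUP had lower values in both lines, which makes 5 of 10 members beside 33.9% of all genes. Higher in both lines were 0 members, beside 16.5%. When HCC70 K18+Vim+ was left out, 4 members passed as lower (PKP3, DSP, JUP and DSC2) and 0 as higher, beside 7.7% and 4.34% of all genes. PKP3 had -3.63 there (limma adjusted p = 0.00241, with 0.00241 to 1.0 over the alternatives). In that fit the population is the MDA-MB-468 library labelled K18+Vim+ alone. Without that library 0 members passed, and JUP and PKP3 had differences of 0.08 each.

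Other lists were set beside the desmosome genes in the MDA-MB-468 library labelled K18+Vim+. The median log2 ratio to MDA-MB-468 K18+ was -1.25 for the desmosome genes and -1.31 for 6 tested desmosome-related genes. It was -1.52 for 8 hemidesmosome and epidermal laminin genes, -3.11 for 11 keratins and 2.44 for 8 tested mesenchymal markers. PKP1 and DSG3 were at the floor in MDA-MB-468 K18+, as was PPL (periplakin) of the desmosome-related list, so none of them could fall. The medians of -1.25, -1.31 and -1.52 are therefore not ranked. In HCC70 the medians were -0.47, -0.12, -0.11, -0.15 and 0.57 in the same order, so the desmosome median was the lowest of these. The mesenchymal list holds VIM, a sort gene. EVPL (envoplakin, a plakin) and LAD1 (ladinin) stood at 3.28 and 1.70 FPKM in the MDA-MB-468 library labelled K18+Vim+, against 58.7 and 30.3 FPKM in MDA-MB-468 K18+. In HCC70 they stood at 33.7 and 50.3 FPKM in K18+Vim+, against 26.8 and 57.6 FPKM in K18+. The differences between lists were not tested.

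**Figure D5:**
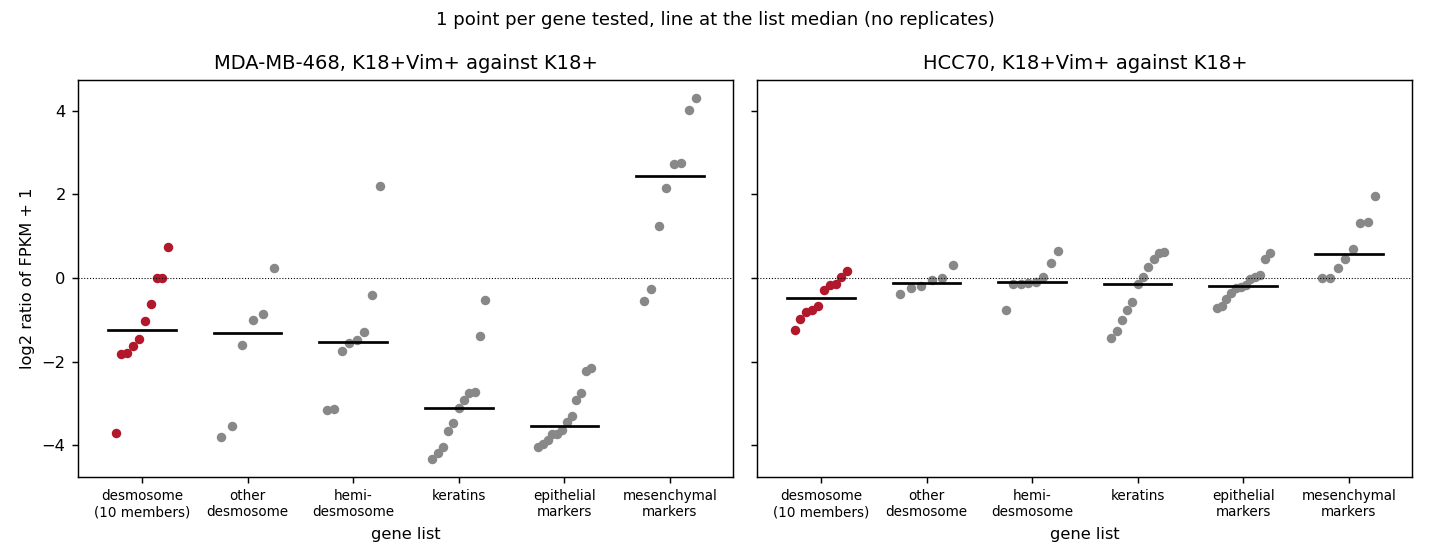
Log2 ratio of FPKM + 1 of K18+Vim+ against K18+ in each line for the desmosome genes (red) and 5 other lists, 1 point per gene tested and a line at each median. In MDA-MB-468 the desmosome median is -1.25 between 2.44 for mesenchymal markers and -3.53 for epithelial markers, and in HCC70 it is -0.47 beside -0.19 for epithelial markers.

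K18+K14+ cells were set against K18+ cells for keratin 14. DSC2, DSC3, DSG2, DSP and PERP had lower values in both lines, and JUP and PKP3 higher values in both, with DSP nearly level. DSC2 stood at 9.87 FPKM in MDA-MB-468 K18+K14+ against 13.1 FPKM in MDA-MB-468 K18+, and at 5.18 against 10.6 FPKM in HCC70. DSG2 had values of 4.09 and 5.33 FPKM in the same MDA-MB-468 pair, and 14.5 against 22.6 FPKM in HCC70. PERP stood at 49.3 against 76.3 FPKM in MDA-MB-468 K18+K14+ and K18+, and at 47.1 against 63.8 FPKM in HCC70. JUP had 69.4 against 36.6 FPKM in the pair from MDA-MB-468 and 71.2 against 67.7 FPKM in HCC70, and PKP3 had 63.5 against 55.0 FPKM and 44.2 against 30.5 FPKM in the same pairs. PKP2 had 1.44 against 5.06 FPKM in MDA-MB-468 and 3.71 against 3.67 FPKM in HCC70. Members lower in both lines were 5 of 10, beside 43.7% of all genes, and members higher in both were 2, beside 20.2%. A log2 ratio of -1 or less was reached in MDA-MB-468 by PKP2 alone, beside 15.5% of all genes, and in HCC70 by 0 members, beside 2.33%. One of 1 or more was reached by 0 members, beside 9.13% and 0.771%. The median of all genes was -0.17 in MDA-MB-468 and -0.15 in HCC70, and that of the members -0.24 and -0.14.

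With limma 0 of 12454 genes passed, and 428 genes (3.44%), 0 of them members, had an unadjusted p under 0.05. The fitted differences were -0.64 ± 0.52 for DSC2, -0.46 ± 0.48 for DSG2, -0.53 ± 0.41 for PERP, 0.49 ± 0.62 for JUP and 0.36 ± 0.92 for PKP3, with limma adjusted p of 0.855 to 0.949. Beside them, the log2 ratio ran against transcript length in both lines (Spearman rho over 12436 genes, -0.303 in MDA-MB-468 and -0.231 in HCC70). DSC2 has the longest transcript of the members at 12325 bases and PKP3 the shortest at 2809 bases. DSP, at 9796 bases, had a fitted difference of -0.10. PERP and PKP2, at 4290 and 4302 bases, had -0.53 and -0.65. With the trend with length removed the differences were -0.23 for DSC2, -0.11 for DSG2, -0.22 for PERP, 0.73 for JUP and 0.54 for PKP3. The part of length in these differences was not tested.

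K18+Vim+ and K18+K14+ cells were compared directly as well. In HCC70 DSG3 stood at 1.53 FPKM in K18+Vim+ against 4.65 FPKM in K18+K14+, DSP at 13.998 against 27.4 FPKM and DSC2 at 8.53 against 5.18 FPKM. The other 7 members had log2 ratios between -0.39 and 0.03. In the MDA-MB-468 library labelled K18+Vim+ PKP3 stood at 3.28 FPKM against 63.5 FPKM in MDA-MB-468 K18+K14+, JUP at 9.91 against 69.4 FPKM, and DSG2 at 9.66 against 4.09 FPKM. With limma 0 genes passed and 680 (5.46%) had an unadjusted p under 0.05, 1 of them a member, DSP, with -1.29 ± 0.40 (unadjusted p = 0.0173, limma adjusted p = 0.682). When HCC70 K18+Vim+ was left out, 3 members passed as lower (PKP3, JUP and DSP) and 0 as higher, beside 8.57% and 7.4% of all genes. Log2 ratios of -1 or less were found for 4 members in MDA-MB-468 and 1 in HCC70, beside 18.8% and 2.47% of all genes, and of 1 or more for 1 (DSG2) and 0, beside 21.6% and 3.0%. Lower in both lines were 5 members, beside 23.7%, and higher in both 1, beside 25.6%. This comparison shares its K18+Vim+ libraries with the one against K18+.

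Other genes of the junction and of its regulation were read in the comparison of MDA-MB-468 with HCC70, over all 6 libraries and with the background of 7.68% lower and 4.54% higher. Of 6 tested desmosome-related genes 2 were lower. PPL (periplakin, a plakin of stratified epithelium) was listed at 0.301, 0.1 and 0.1 FPKM in the MDA-MB-468 libraries labelled K18+Vim+, K18+K14+ and K18+, against 12.5, 13.5 and 12.6 FPKM in HCC70 K18+Vim+, K18+K14+ and K18+ (limma adjusted p = 0.00456). KAZN, the gene of the periplakin partner kazrin, had a log2 difference of -1.71 ± 0.34 (limma adjusted p = 0.0314). Among the hemidesmosome and epidermal laminin genes the laminin chains LAMA3 and LAMB3 were lower, with log2 differences of -3.31 ± 0.73 and -3.14 ± 0.58 (limma adjusted p = 0.0373 and 0.0266). Periplakin, like PKP1, passed the filter only through HCC70. Of 11 keratins 2 were lower, KRT6B and KRT16, and of 11 epithelial transcription factors 1, KLF4. Of 12 epithelial markers 3 were lower, among them CDH1 (E-cadherin) with -2.25 ± 0.42 (limma adjusted p = 0.0275). Of 8 mesenchymal markers COL5A1 was lower, and of 2 tested immune markers CD14 and CD68 were. COL5A1 (0.1 to 1.61 FPKM in MDA-MB-468) and CD68 (0.1 to 0.566 FPKM) passed the filter only through HCC70, as periplakin did. They therefore had to differ between the lines, and nothing is read from their calls. Of 3 tested EMT transcription factors, 11 proteases and kinases that act on desmosomal proteins and 4 genes deleted or amplified in MDA-MB-468, 0 passed, and of 5 endothelial markers 0 were tested. With no filter on low values none of these calls held either, since 0 genes passed. Several counts were different without the MDA-MB-468 library labelled K18+Vim+, where 15.4% of all genes were lower and 11.5% higher. Of the 11 keratins 3 were then lower and 5 higher (KRT8, KRT14, KRT15, KRT17 and KRT18, limma adjusted p 0.00214 to 0.0299), and of the 12 epithelial markers 5 were lower and 2 higher. Of the 11 epithelial transcription factors 2 were lower, and of the 3 EMT transcription factors 2, SNAI1 and SNAI2 (limma adjusted p = 0.0399 and 0.000267). Of the 11 proteases and kinases 2 were higher, KLK5 and EGFR, and of the 4 genes deleted or amplified in the line SMAD4 and RB1 were lower and EGFR higher (limma adjusted p = 0.000581, 0.0299 and 0.00292). SNAI2, SMAD4 and RB1 had 0.566 FPKM or less in MDA-MB-468 K18+K14+ and K18+. These genes passed the filter only through HCC70 and the library left out, so nothing is read from their calls. In the 3 pairs of populations 0 genes of any list passed.

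Factors known to act on desmosome genes had these levels. GRHL1 and GRHL2, activators of epithelial junction genes, stood at 2.35 and 1.52 FPKM in the MDA-MB-468 library labelled K18+Vim+ and between 8.30 and 22.2 FPKM in the other 5. The 6 listed EMT transcription factors, repressors of the epithelial state, did not move one way. In the MDA-MB-468 library labelled K18+Vim+ ZEB1, ZEB2, TWIST1 and SNAI2 were listed at 2.09, 4.39, 8.99 and 3.04 FPKM, where MDA-MB-468 K18+ listed them at 0.419, 0.1, 0.509 and 0.1 FPKM. SNAI1 and TWIST2 were listed lower there, at 0.793 and 0.537 FPKM, with 1.73 and 1.35 FPKM in MDA-MB-468 K18+. In HCC70 K18+Vim+ SNAI2 was listed at 2.49 FPKM, against 13.5 FPKM in HCC70 K18+. SNAI1 had 7.60 against 5.40 FPKM and ZEB1 had 1.51 against 0.511 FPKM in the same HCC70 pair, while ZEB2 had 0.363 against 0.51 FPKM, and TWIST1 and TWIST2 were at the floor in both. Their part in the members' values was not tested.

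The 10 members did not share 1 profile. The likeness of a gene was measured as the root-mean-square distance, over the 6 libraries, between its centred log2(FPKM + 1) values and the mean of the members. The members are part of that mean, which lowers their own distances. These ran from 0.26 for DSC3 and 0.34 for DSP to 1.30 for PKP1, and 8 of 10 were below the median of 0.84 over all genes. The non-members nearest to the mean were B3GALNT1 (0.10), MLH3 (0.11), WWC3 (0.11), TMEM59 (0.12) and CPNE2 (0.13). Over the 5 libraries without the MDA-MB-468 one labelled K18+Vim+ they were METTL17, ZNF711, PIK3C2B, PIK3R3 and CTCF, at 0.04 to 0.05. DSC3 was again the nearest member at 0.22 and PKP1 the farthest at 1.39, and 6 of 10 were below the median of 0.57 over all genes.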

How the data were processed

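RNA was sequenced from 6 sorted libraries, 3 populations of each of the lines MDA-MB-468 and HCC70. Per the submitters' processing notes, reads were aligned with TopHat2 to GRCh37. Which counting tool and annotation were used, and the lanes and depth, is not given in the sources used here. FPKM values as the authors deposited them stand in 1 table by Entrez Gene ID, with a floor of 0.1 and a ceiling of 10000 FPKM visible in the values. Low values showed no steps of single reads.

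Of 18807 rows, 7 lacked a value and were dropped, and of 5 IDs listed in 2 rows the higher row by mean was used, leaving 18795 genes. RefSeq (GRCh38.p14) gave a symbol to 18732. Its coordinates are printed only for its own promoter sequences. The 12454 genes that averaged 1 FPKM or more were put on the log2(FPKM + 1) scale, on which differences of weakly expressed genes come out too small. Under limma 3.58.1 (R 4.3.3, eBayes with trend) they were modelled on population and cell line. All 6 libraries entered 1 fit with 2 residual degrees of freedom, and p-values were adjusted by Benjamini-Hochberg over all genes at 0.05. The line pairs the populations, since each line gave 1 library of each, and it is a block. P-values measure the spread between these libraries; separate cultures are not stated. With the lines as the only replicates, the spread of a population difference is how far the 2 lines disagree.

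Population ratios within a line are 1 library against 1 with no test. Counts past a log2 ratio of 1 either way are set beside those of all genes. The alternatives were no block, pseudocounts of 0.1 and 5, no filter, a minimum of 5 FPKM, quantile normalization, removal of each library's trend with transcript length (longest GENCODE transcript, 12436 genes), limma without trend, and leaving out each library. All members are named, with up to 4 genes of each of 11 other lists and the 5 genes nearest in pattern. PKP4, GRHL1, GRHL2, the 6 EMT factors and the keratins beyond 4 were named after their values were seen. The members and lists were chosen with earlier results of these data known. Some genes of the lists are not reported here. Python 3.11.15, pandas 2.3.3, numpy 2.4.6 and matplotlib 3.10.9 served for tables and figures.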

Additional observations from a re-analysis of the deposited data

Results flagged for a closer look

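Some members moved in opposite directions in the 2 lines, or between the lines in different populations. Each value is a log2 ratio of 1 library to 1, and none of these differences was tested. For K18+Vim+ against K18+, DSG2 had 0.75 in MDA-MB-468 and -0.80 in HCC70, PKP3 -3.71 and 0.16, PKP2 -1.04 and 0.0154, and DSG3, near the floor in MDA-MB-468, 0.0118 and -1.24. For K18+K14+ against K18+, PKP2 had -1.31 in MDA-MB-468 and 0.0123 in HCC70. For K18+Vim+ against K18+K14+, DSG2 had 1.07 in MDA-MB-468 and -0.19 in HCC70, DSC2 -1.25 and 0.62, and DSG3 0.0118 and -1.16. For MDA-MB-468 against HCC70, given for K18+Vim+, K18+K14+ and K18+ in turn, PKP3 had -3.04, 0.51 and 0.83, DSC2 -1.06, 0.81 and 0.28, PERP -0.55, 0.0645 and 0.26, and PKP2 -0.68, -0.95 and 0.37. Every MDA-MB-468 K18+Vim+ value is that of the library so labelled, whose SMAD4, RB1 and EGFR values go against its label.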

How the results depend on the processing

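Depth is unknown, and 2 residual degrees of freedom limit all tests. The lines gave 1522 genes and 3 members. With cell line as the only term (no replicate block) the counts were 1875 and 3; without cell line as a block the pairs of populations had 0 genes and 0 members, as with it. No filter gave 0 genes and 0 members, and the cause was not tested; leaving out 1 library gave 206 to 3360 genes and 1 to 4 members, with fewer residual degrees of freedom and a lone library assumed to vary like the others. For the pairs of populations leaving out 1 library gave 0 to 1 genes and 0 members in K18+K14+ against K18+, 0 to 1500 genes and 0 to 4 members in K18+Vim+ against K18+, and 0 to 1988 genes and 0 to 3 members in K18+Vim+ against K18+K14+. In both comparisons of K18+Vim+ the highest count came without HCC70 K18+Vim+.

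Of 552 member values under an alternative 487 kept direction and side, 43 turned sign, 13 lost and 9 gained a call. A minimum of 5 FPKM left DSG3 and PKP2 out of the fit. In K18+K14+ against K18+, DSP, PKP1 and DSG3 became 0.0701, 0.0206 and 0.0865 after quantile normalization and 0.30, 0.25 and 0.31 with the length trend removed. In K18+Vim+ against K18+, PKP1 became 0.0235 and 0.10 and DSG2 0.16 and 0.17 under the same 2 settings, and DSG2 0.0001 at a pseudocount of 0.1. In K18+Vim+ against K18+K14+, PKP1 became -0.14 with the length trend removed. Between the lines DSC2 became -0.0064 at a pseudocount of 0.1 and PERP 0.0471 with the length trend removed. Leaving out 1 library gave these ranges with both signs. In K18+K14+ against K18+ they were -0.34 to 0.13 for DSP, -0.34 to 1.32 for JUP, -0.69 to 1.41 for PKP3 and -0.37 to 0.29 for DSG3. In K18+Vim+ against K18+ they were -1.99 to 0.0767 for JUP, -0.17 to 0.0083 for PKP1, -1.11 to 0.0825 for PKP2, -3.63 to 0.0814 for PKP3 and -0.73 to 0.68 for DSG2. In K18+Vim+ against K18+K14+ they were -0.0408 to 0.0738 for PKP1, -0.26 to 0.53 for PKP2, -0.26 to 1.14 for DSG2, -1.18 to 0.032 for DSG3 and -1.12 to 0.49 for DSC2. Between the lines they were -1.26 to 0.67 for PKP3, -0.39 to 0.55 for DSC2 and -0.24 to 0.16 for PERP.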
